A study of Mus musculus with 9 samples.

Results

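The genes described here are 10 members of the BCL2 family, the proteins that decide whether the outer mitochondrial membrane is opened during apoptosis. They were chosen by name, and each of the 10 had 1 row among the 57010 genes of the deposited tables. All 10 were among the 13686 genes with enough counts to be tested. They are the pore-forming executioner genes Bax, Bak1 and Bok, the BH3-only sensor genes Bid, Bad, Bbc3, Pmaip1 and Bcl2l11, and the survival genes Bcl2l1 and Mcl1. RNA sequencing had been done on liver of male BALB/c mice in 9 libraries. AT3 (3 libraries) and CPT (3 libraries) carry the same treatment label, an acute liver injury caused by cisplatin, and CON (3 libraries) carries the treatment label none. Cisplatin is a platinum drug that crosslinks DNA, and the design text of the series mentions injected DDP, another name for it, without saying which groups received it. AT3 is not spelled out in the labels, while the title of the series names atractylenolide III, a plant sesquiterpene lactone, as the compound under study. The sources used here do not state age, dose, site of injection or time, nor whether each replicate is its own animal. The p-values therefore reflect how far these libraries spread, which may in part be technical.

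In the intrinsic pathway of apoptosis, survival proteins such as BCL-XL (from Bcl2l1) and MCL1 hold the executioners BAX and BAK in check. BH3-only proteins, switched on by DNA damage, growth factor loss or other stress, occupy the survival proteins or engage the executioners directly, after which cytochrome c leaves the mitochondria and caspases are activated. Hepatocytes are known to depend on both BCL-XL and MCL1 for survival, and Bax, Bbc3 and Pmaip1 are textbook targets of the p53 protein. Much of this control acts on the proteins, which transcript levels do not show.

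The libraries held 21485021 to 28480479 estimated counts. CON libraries stood apart: transcripts of the mitochondrial genome took 9.79% to 11.4% of the counts in AT3, 11.2% to 16.3% in CPT and 25.8% to 36.8% in CON, and the first principal component of log2 CPM, with 76.9% of the variance, parted CON (-101 to -90.7) from AT3 (52 to 53.8) and CPT (35.5 to 52.4). On the next component CPT_3 lay at -7.41, between the AT3 libraries (18.1 to 21) and the other two CPT libraries (-29.5 and -27.8). Summed over 10 hepatocyte markers, levels were 81311 to 87797 CPM in AT3, 54272 to 70408 CPM in CPT and 77962 to 82247 CPM in CON, with none of the 10 at 0 in any group. These markers did not move together. In CPT against CON 3 of them were higher, 3 lower and 4 not called, with a median log2 fold change of 0.07. Macrophage markers summed to 28.3 to 33.0 CPM in AT3, 23.9 to 30.1 CPM in CPT and 46.0 to 60.2 CPM in CON. Of these 10 markers 6 were lower, 1 higher and 3 not called in CPT against CON. In AT3 against CON 5 were lower, 1 higher and 4 not called. Lymphocyte markers summed to 0.755 to 1.07 CPM in AT3, 0.615 to 0.883 CPM in CPT and 3.65 to 4.27 CPM in CON. Only 2 of the 10 lymphocyte markers were tested, and these 2 were lower in CPT and in AT3 than in CON. Cholangiocyte markers summed to 21.6 to 25.3 CPM in AT3, 17.4 to 22.04 CPM in CPT and 15.8 to 20.9 CPM in CON, with Cftr at 0 in all groups. Most of that sum was Spp1, at a mean of 21.5 CPM in AT3, 16.9 in CPT and 15.1 in CON. Of 5 tested cholangiocyte markers, 1 was called higher and 1 lower in AT3 against CON (median log2 fold change -0.69). In CPT against CON 0 were higher and 2 lower (median -0.31). Erythroid markers summed to 38.4 to 44.5 CPM in AT3, 42.7 to 50.9 CPM in CPT and 797 to 908 CPM in CON. CPM are counts scaled by library size and a TMM factor, and a gene is called at an edgeR adjusted p under 0.05.

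Promoter sequences are shown for the 3 genes whose window held one of the motifs searched, because Bax and Bcl2l11 carried the changes between AT3 and CPT and Bbc3 shares a motif with Bcl2l11. Each window runs from 250 bases before to 50 bases after a RefSeq transcription start (build GRCm38.p6), printed 5′ to 3′ on the gene's strand, with the motif match in capitals. Windows of 9 of the 10 genes were searched, 15 in all, and Pmaip1 was left out of the search. Searched on both strands were the p53 half-site, the STAT palindrome TTCNNNGAA, the FOXO motif TGTTTAC, the ATF4 motif TGATGNAA and the AP-1 motif TGANTCA. Bax, chr7:45466849-45467148, minus strand, with a p53 half-site 201 bases before the start.
Bax: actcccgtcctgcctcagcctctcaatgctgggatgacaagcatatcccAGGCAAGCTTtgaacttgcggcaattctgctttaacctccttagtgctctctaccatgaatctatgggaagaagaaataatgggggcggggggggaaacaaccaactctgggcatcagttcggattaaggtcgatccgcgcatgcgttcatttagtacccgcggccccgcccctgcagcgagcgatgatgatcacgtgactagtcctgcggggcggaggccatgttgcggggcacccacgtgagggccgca
Bcl2l11, chr2:128125788-128126087, plus strand, the first of 2 starts, with a FOXO match 227 bases before the start.
Bcl2l11: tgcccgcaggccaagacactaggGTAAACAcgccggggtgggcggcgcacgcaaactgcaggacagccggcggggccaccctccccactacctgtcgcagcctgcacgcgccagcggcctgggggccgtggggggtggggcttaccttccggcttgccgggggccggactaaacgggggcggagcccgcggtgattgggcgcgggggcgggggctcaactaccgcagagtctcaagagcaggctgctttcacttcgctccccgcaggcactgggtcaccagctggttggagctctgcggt
Bbc3, chr7:16310011-16310310, plus strand, 1 of 3 starts, with a FOXO match 167 bases before the start.
Bbc3: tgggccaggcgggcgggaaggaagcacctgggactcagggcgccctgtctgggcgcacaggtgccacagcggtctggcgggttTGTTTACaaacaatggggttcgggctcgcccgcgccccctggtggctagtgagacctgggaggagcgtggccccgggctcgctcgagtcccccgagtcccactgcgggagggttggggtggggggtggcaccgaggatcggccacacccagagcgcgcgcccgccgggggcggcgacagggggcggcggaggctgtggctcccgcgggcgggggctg

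The p53 half-site occurred in 1 of the 15 windows and in 8.36% of 32851 mouse promoter windows of the same length. FOXO matches occurred in 3.65% of all windows, STAT in 8.30%, ATF4 in 3.97% and AP-1 in 7.81%. None of the 15 windows, which do not include Pmaip1, held one of the last 3. A match is a run of letters, not a measured binding site, and its part in any change below was not tested.

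CPT was set against CON to ask how cisplatin injury is reflected in these transcripts. Transcripts on both sides of the family were higher in CPT: the executioner Bax (2.36-fold), 4 BH3-only genes (2.24-fold to 3.83-fold) and the survival genes Bcl2l1 (2.10-fold) and Mcl1 (1.62-fold) rose, while the executioner Bok was 4.83-fold lower. Of the 10 genes, 7 rose, 1 fell and 2 (Bak1 and Pmaip1) were not called. Over all 13686 tested genes 60.8% were called, 30.0% higher and 30.8% lower. The 10 genes had a median log2 fold change of 1.19, against -0.02 over all tested genes. For 9 of the 10 genes no CPT library overlapped CON, as for 64.2% of all tested genes. On log2(TPM + 1) the split of calls over all genes was 6631 higher and 1604 lower, against 4107 and 4219 on counts, and 9 of the 10 genes were called higher and 1 lower.

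**Figure D1:**
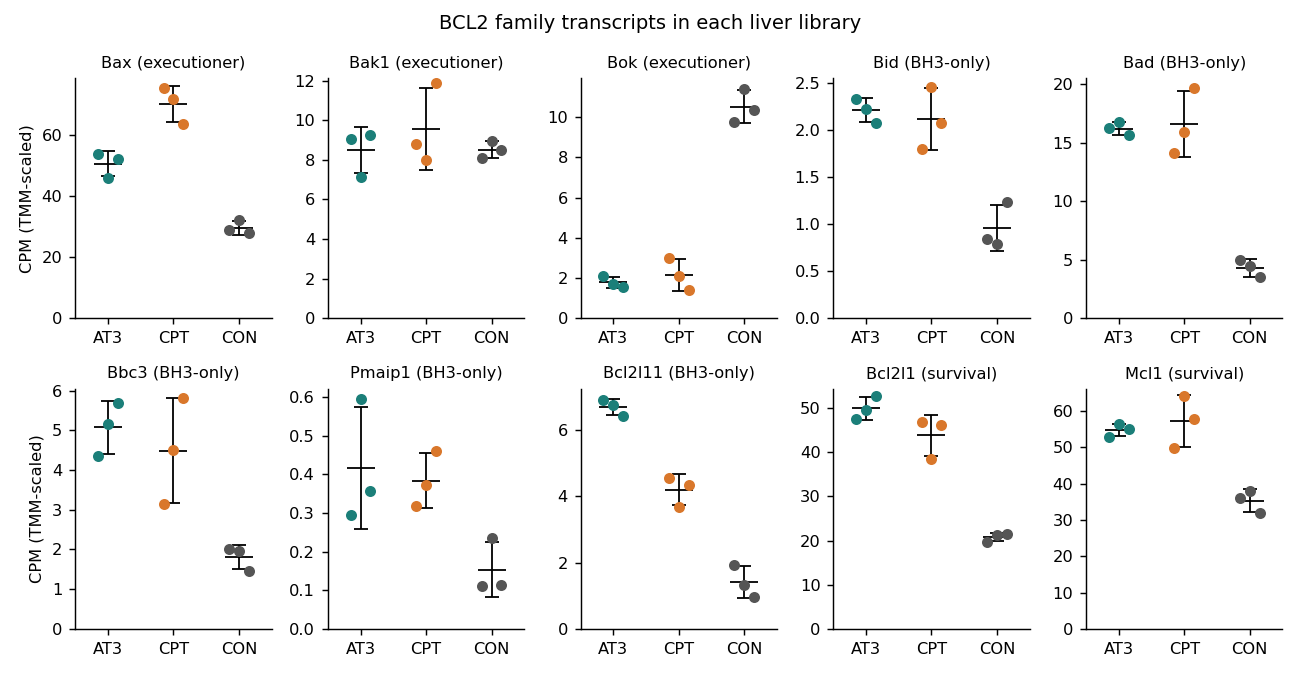
Level of each of the 10 genes in every library, in TMM-scaled CPM on linear axes that start at 0, with AT3, CPT and CON from left to right. Points are libraries, and bars are the mean and SD of 3. Bax is highest in CPT, Bcl2l11 is highest in AT3, and Bok is highest in CON at 9.78 to 11.4 CPM.

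Among the executioners, Bax encodes a protein that moves from the cytosol into the outer mitochondrial membrane and forms pores there. Bax (ENSMUSG00000003873, chromosome 7, 45461697 to 45466898, GRCm38) measured 75.3, 71.7 and 63.8 CPM in CPT, against 28.8, 32.3 and 28.1 CPM in CON. Every CPT library was above every CON library, for a log2 difference of 1.24 ± 0.10 (SE), edgeR adjusted p = 6.31e-08. Bak1, whose product is the executioner resident in the mitochondrial membrane, measured 8.80, 7.97 and 11.9 CPM in CPT, against 8.09, 8.95 and 8.50 CPM in CON. These values overlapped, and the log2 fold change of 0.16 ± 0.15 (SE) was not called (edgeR adjusted p = 0.388). On the deposited TPM scale Bak1 was called higher by 0.61 (limma adjusted p = 0.008), where the median of all genes was itself higher by 0.29.

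Bok encodes another member of the executioner class, known to reside largely at the endoplasmic reticulum. Bok (ENSMUSG00000026278, chromosome 1, 93685660 to 93695764, GRCm38) measured 3.004, 2.09 and 1.42 CPM in CPT, against 9.78, 11.4 and 10.4 CPM in CON. The groups lay far apart, at -2.27 ± 0.21 (SE) on the log2 scale, edgeR adjusted p = 1.94e-07. Markers of some non-parenchymal cells were lower in the same libraries and those of others were not. The summed level of 10 stellate cell and fibroblast markers was 47.3 to 54.98 CPM in CPT and 209 to 242 CPM in CON, with 10 of 10 markers lower and none at 0. The 10 sinusoidal endothelial markers summed to 26.1 to 34.8 CPM in CPT and 145 to 149 CPM in CON, with 8 of 10 lower and none at 0. Neutrophil markers went the other way, summing to 24.1 to 50.2 CPM in CPT and 4.08 to 5.28 CPM in CON. Of 5 tested neutrophil markers, 4 were called higher and 0 lower. The part of these cell types in the Bok result was not tested. In bulk tissue fewer cells of a type and less RNA per cell cannot be told apart.

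Of the 5 BH3-only genes among the 10, 4 rose and Pmaip1 was not called. Bad, whose product binds BCL-XL unless growth factor signalling phosphorylates it, measured 14.1, 15.9 and 19.7 CPM in CPT, against 4.95, 4.47 and 3.49 CPM in CON. The lowest CPT library was well above the highest CON library, and the log2 fold change of 1.94 ± 0.15 (SE; edgeR adjusted p = 2.55e-08) was larger than that of the other rising members. Bcl2l11 encodes BIM, a BH3-only protein that can bind every survival protein of the family and also engages BAX. Bcl2l11 (ENSMUSG00000027381, chromosome 2, 128126038 to 128162547, GRCm38) measured 4.56, 3.67 and 4.34 CPM in CPT, against 1.91, 1.33 and 0.957 CPM in CON, a change of 1.58 ± 0.21 (SE) on the log2 scale with edgeR adjusted p = 1.03e-05.

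Bbc3 encodes PUMA, the BH3-only protein best known as a mediator of p53-induced death. It measured 3.15, 4.51 and 5.81 CPM in CPT, against 2.02, 1.96 and 1.46 CPM in CON. CPT_1 came closest to CON without overlapping it, and the log2 fold change was 1.29 ± 0.24 (SE), edgeR adjusted p = 0.000212. Bid links death receptors to mitochondria, since caspase-8 cleaves its product into an active fragment. It measured 1.80, 2.46 and 2.08 CPM in CPT, against 0.843, 0.785 and 1.24 CPM in CON, a low level at which the groups still did not overlap (log2 fold change 1.16 ± 0.27 (SE), edgeR adjusted p = 0.00146). Pmaip1, which encodes NOXA, a BH3-only protein that targets MCL1, was near the detection limit with 9, 12 and 12 counts in CPT, against 2, 6 and 2 counts in CON. No library overlapped, but the log2 fold change of 1.22 ± 0.55 (SE) was not called (edgeR adjusted p = 0.0663). On the TPM scale it was called (limma adjusted p = 0.0369 at a pseudocount of 1). Pmaip1 passed the filter on low counts only through CPT and AT3 libraries. With the 6 libraries of this comparison alone it failed that filter and was not tested.

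Of the survival genes, Bcl2l1 (ENSMUSG00000007659, chromosome 2, 152780668 to 152831728, GRCm38) measured 46.8, 38.5 and 46.1 CPM in CPT, against 19.7, 21.2 and 21.4 CPM in CON. All CPT libraries were well above CON, at a log2 difference of 1.07 ± 0.10 (SE), edgeR adjusted p = 2.46e-07. Mcl1, whose product is a short-lived protein, measured 49.8, 64.1 and 57.7 CPM in CPT, against 36.1, 38.0 and 31.8 CPM in CON. The libraries did not overlap, and the log2 fold change of 0.70 ± 0.11 (SE; edgeR adjusted p = 4.22e-05) was smaller than that of every other rising member. Mcl1 (ENSMUSG00000038612) lies on chromosome 3 from 95658788 to 95663176.

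The comparison of AT3 with CPT addresses what accompanies the label AT3 in livers with the same injury. Bax was 1.39-fold lower in AT3 and Bcl2l11 was 1.60-fold higher, so 1 executioner gene fell and 1 BH3-only gene rose. The other 8 genes were not called. Over all tested genes 4.68% were called, 2.46% higher and 2.22% lower, and the median log2 fold change of the 10 genes was 0.02, against 0 over all tested genes. No library overlapped for Bax, Bcl2l11 and Bcl2l1, 3 of the 10 genes, and for 27.0% of all tested genes.

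**Figure D2:**
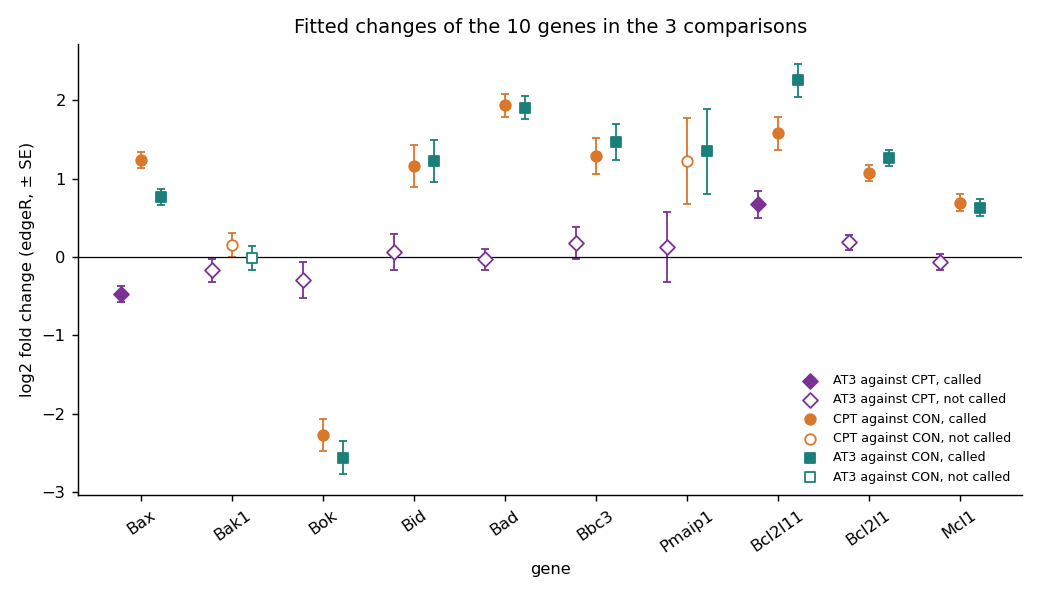
Fitted log2 fold change of each gene (vertical axis, ± SE) for AT3 against CPT, CPT against CON and AT3 against CON, from left to right at each gene. Filled symbols are called at edgeR adjusted p under 0.05. Bax lies at -0.47 and Bcl2l11 at 0.67 in AT3 against CPT, and Bok below -2 in both comparisons with CON.

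Bax measured 53.8, 46.0 and 52.2 CPM in AT3, against 75.3, 71.7 and 63.8 CPM in CPT. The highest AT3 library lay below the lowest CPT library, CPT_3, and the log2 fold change was -0.47 ± 0.10 (SE), edgeR adjusted p = 0.0155. Bcl2l11 measured 6.89, 6.74 and 6.41 CPM in AT3, against 4.56, 3.67 and 4.34 CPM in CPT. AT3 libraries lay close together above all CPT libraries, at a log2 difference of 0.67 ± 0.17 (SE), edgeR adjusted p = 0.0360. Leaving out 1 library ended the Bax call for AT3_1, AT3_2, AT3_3 and CPT_2 (edgeR adjusted p = 0.0513 to 0.0953) and the Bcl2l11 call for these 4 and CPT_1 (0.0606 to 0.144), with the directions kept. Without CPT_1 the Bax value rounded to an edgeR adjusted p = 0.05 and kept its call. Without CPT_3 both calls held (edgeR adjusted p = 0.00444 for Bax and 0.0312 for Bcl2l11), and on the TPM scale neither was called (limma adjusted p = 0.289 and 0.298 at a pseudocount of 1).

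Bcl2l1 measured 47.6, 49.7 and 52.7 CPM in AT3, against 46.8, 38.5 and 46.1 CPM in CPT. AT3 lay just above CPT in every library, but the log2 fold change of 0.19 ± 0.10 (SE) was not called (edgeR adjusted p = 0.283). Mcl1 measured 52.9, 56.3 and 55.0 CPM in AT3, inside the CPT range of 49.8 to 64.1 CPM (log2 fold change -0.06 ± 0.10 (SE)). Bad measured 15.6 to 16.7 CPM in AT3 and 14.1 to 19.7 CPM in CPT, with overlap. Bid measured 2.08 to 2.33 CPM in AT3 and 1.80 to 2.46 CPM in CPT, and Bak1 7.15 to 9.24 CPM in AT3 and 7.97 to 11.9 CPM in CPT, likewise with overlap.

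Bbc3 measured 4.36, 5.17 and 5.70 CPM in AT3, within the wide CPT range of 3.15 to 5.81 CPM. Pmaip1 had 9, 19 and 10 counts in AT3, against 9, 12 and 12 counts in CPT. Bok measured 2.10, 1.69 and 1.54 CPM in AT3, against 3.004, 2.09 and 1.42 CPM in CPT, and these overlapped. Neutrophil markers moved between the same groups: 10 of them summed to 12.1 to 13.5 CPM in AT3 and 24.1 to 50.2 CPM in CPT (4.08 to 5.28 CPM in CON), with 3 of 5 tested markers lower, Mpo and Camp at 0 in AT3 and Camp at 0 in CPT. Hepatocyte markers were higher in AT3 for 4 of 10. The 10 stellate cell and fibroblast markers summed to 29.9 to 45.5 CPM in AT3 and 47.3 to 54.98 CPM in CPT, with 2 of 10 lower and none at 0. Sinusoidal endothelial markers summed to 29.7 to 36.7 CPM in AT3 and 26.1 to 34.8 CPM in CPT, with 1 of 10 higher and none at 0. The part of these markers in the changes of Bax and Bcl2l11 was not tested.

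The comparison of AT3 with CON shares its CON libraries with that of CPT, so the values are given beside each other. Of the 10 genes, 8 rose in AT3, 1 fell and 1 (Bak1) was not called. Of all tested genes 64.4% were called, 31.5% higher and 32.9% lower. Pmaip1 is counted among the 8, but it passed the filter on low counts only through AT3 and CPT libraries, where it was high. Its call is therefore not separate support for a rise. The median log2 fold change was 1.24 for the 10 genes, against -0.04 over all tested genes. Bcl2l11 reached 4.77-fold in AT3 and 2.99-fold in CPT against CON, and Bax 1.70-fold in AT3 and 2.36-fold in CPT. The survival gene Bcl2l1 stood at 2.40-fold in AT3 and 2.10-fold in CPT, and Mcl1 at 1.55-fold in AT3 and 1.62-fold in CPT. Bad stood at 3.75-fold in AT3 and 3.83-fold in CPT, and Bok was 5.91-fold lower in AT3 and 4.83-fold lower in CPT. Pmaip1, called in AT3 at 1.35 ± 0.54 (SE) on the log2 scale, edgeR adjusted p = 0.0396, lost this call under 8 alternatives. These were DESeq2 (adjusted p = 0.0813), testing without the filter on low counts, limma-voom, and leaving out AT3_2, AT3_3, CPT_2, CON_1 or CON_3 (edgeR adjusted p = 0.0524 to 0.18), AT3_2 being the library with 19 counts. With the 6 libraries of this comparison alone Pmaip1 failed the filter on low counts and was not tested. No library overlapped for 9 of the 10 genes and for 70.3% of all tested genes.

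Levels between genes are compared on the deposited TPM scale, a relative abundance that accounts for gene length. Bax was the most abundant member in all groups, at 75.1 ± 5.02 TPM in AT3, 97.5 ± 5.37 TPM in CPT and 27.2 ± 6.04 TPM in CON (SD, n = 3 libraries). In AT3 the order then ran Bcl2l1 (22.4 TPM), Bad (17.7), Mcl1 (16.7), Bak1 (4.67), Bbc3 (3.98), Bcl2l11 (1.88), Bok (1.46), Bid (1.003) and Pmaip1 (0.177). Of these neighbours Bad and Mcl1, Bak1 and Bbc3, and Bcl2l11 and Bok overlapped between libraries. In CPT Bak1 was at 5.03 TPM and Pmaip1 at 0.153 TPM. There the levels of Bcl2l1 (18.5 TPM), Bad (17.7) and Mcl1 (16.4) overlapped with their neighbours, as did Bbc3 (2.95), Bok (1.58), Bcl2l11 (1.19) and Bid (0.943).

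CON had another order, in which Bok stood at 5.16 TPM, overlapping Bcl2l1 (5.75 TPM), itself overlapping Mcl1 (6.78 TPM). Bad followed at 3.50 TPM, overlapping Bak1 (2.94 TPM), and the lowest levels were those of Bbc3 (0.730 TPM), Bcl2l11 (0.460 TPM), Bid (0.337 TPM) and Pmaip1 (0.0433 TPM), of which Bbc3, Bcl2l11 and Bid overlapped their neighbours. Bok made up 0.802% to 1.19% of the summed TPM of the 10 genes in AT3, 0.667% to 1.33% in CPT and 9.23% to 9.995% in CON. The TPM of Bcl2l11 in CON_1 was 0.94, against 0.27 in CON_2, although both libraries had 34 counts, so the length the authors used for this gene differed between libraries. Its CON level in TPM rests on that library.

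A ratio of TPM values inside a library does not depend on how libraries are scaled to each other. The executioner sum (Bax, Bak1 and Bok) over the survival sum (Bcl2l1 and Mcl1) was 2.30, 1.87 and 2.09 in AT3, 3.29, 3.03 and 2.68 in CPT and 2.77, 2.86 and 2.82 in CON. AT3 lay below every CPT and every CON library, while CPT and CON overlapped. Recomputed from CPM per kilobase of deposited gene length, the ratio was 1.62 to 2.01 in AT3, 2.30 to 2.87 in CPT and 2.61 to 2.79 in CON, with the same separation. These ratios are descriptions without a test, and they count transcripts, not proteins.

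**Figure D3:**
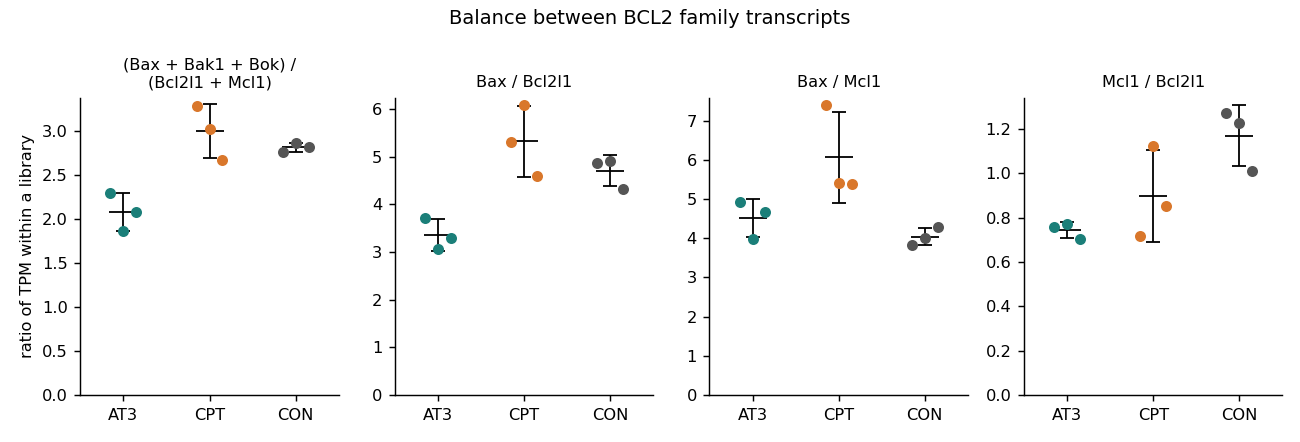
Ratios of TPM values inside each library on linear axes that start at 0, with AT3, CPT and CON from left to right. Points are libraries, and bars are the mean and SD of 3. The first 2 ratios are lowest in AT3, while the mean of Mcl1 over Bcl2l1 is highest in CON, whose libraries span 1.01 to 1.27.

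Bax over Bcl2l1 was 3.72, 3.07 and 3.29 in AT3, 5.31, 6.08 and 4.59 in CPT and 4.88, 4.92 and 4.33 in CON. AT3 was again below both other groups, which overlapped. Bax over Mcl1 was 4.92, 3.98 and 4.68 in AT3, 7.40, 5.41 and 5.38 in CPT and 3.84, 4.01 and 4.28 in CON. Here CPT was above both other groups, and AT3 and CON overlapped. Mcl1 over Bcl2l1 was 0.757, 0.772 and 0.703 in AT3, 0.717, 1.13 and 0.854 in CPT and 1.27, 1.23 and 1.01 in CON. CON overlapped with CPT, and AT3 lay below CON.

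Other BCL2 family genes give the background of these 10. Bcl2 itself had 1 to 11.63 counts in a library and was not tested. In the list of 10 other homologues, Bcl2 included, 4 were tested in CPT against CON, where Bcl2l2 (BCL-w, a survival protein) rose by 0.46 and Bcl2l12 fell by 0.93 on the log2 scale, with edgeR adjusted p = 0.00768 and 0.00131. Of 8 further genes whose products carry a BH3 or related motif, 6 were tested. Bnip3, of hypoxia-induced mitophagy, rose (log2 fold change 1.25), as did Becn1 (0.37) and Bnip3l (0.28). Bik, a BH3-only gene, fell (log2 fold change -2.66 ± 0.22 (SE), edgeR adjusted p = 5.31e-08), as did Bmf (-0.65) and Spns1 (-0.43). On log2(TPM + 1) Bmf was at -0.04 and Spns1 at 0.08, neither called (limma adjusted p = 0.616 and 0.648). The median log2 fold change was 0.29 for the homologues and -0.08 for the BH3 genes, against -0.02 over all tested genes, of which 60.8% were called.

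Downstream of the family, 16 of 17 genes of the apoptosome and of proteins released from mitochondria were tested in CPT against CON. Of these, 11 rose, 3 fell and 2 were not called, with a median log2 fold change of 0.56. Over all tested genes 30.0% were higher and 30.8% lower, with a median of -0.02. Apaf1, the scaffold that cytochrome c assembles into the apoptosome, rose by 1.86 on the log2 scale, and Vdac3, a channel of the outer membrane, by 1.07. Diablo, which encodes an antagonist of caspase inhibitors, rose by 1.01 on the log2 scale. The falls were Endog (-0.60), Htra2 (-0.37) and the caspase inhibitor gene Xiap (-0.33). On log2(TPM + 1) these were at 0.01, 0.10 and 0.35, with Xiap then called higher (limma adjusted p = 0.0368). The median of all genes on that scale was 0.29. Inhibitor genes did not move together. By edgeR Birc2 of the same list rose (log2 fold change 0.59, adjusted p = 0.00275), Birc3 was not called (-0.15) and Birc5 was not tested. In AT3 against CPT the 3 lists named so far had 0 genes called by edgeR with its filter on low counts and by DESeq2. Of all tested genes edgeR called 4.68% there. An unadjusted edgeR p under 0.05 was reached by 0 of 4 homologues, 1 of 6 BH3 genes and 5 of 16 apoptosome genes. Over all tested genes it was reached by 2833 of 13686. Of the apoptosome list 1 gene was called higher by edgeR without that filter and 3 by limma-voom.

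Of 33 tested genes that regulate the family or its proteins, 12 rose, 7 fell and 14 were not called in CPT against CON. Their median log2 fold change was 0.08, against -0.02 over all tested genes, of which 30.0% were higher and 30.8% lower. On log2(TPM + 1) 25 of the 33 were higher and 2 lower, against 6631 and 1604 of all 13686 tested genes. Stat3, a cytokine-activated transcription factor, rose by 1.72 on the log2 scale, and Marchf5, which encodes a mitochondrial ubiquitin ligase, by 1.38. Dynll2, a dynein light chain known to bind BMF, fell (log2 fold change -1.04), as did Fbxw7, a ubiquitin ligase component that marks MCL1 for degradation (-0.89, and -0.18 with limma adjusted p = 0.135 on log2(TPM + 1)). The p53 gene Trp53 was lower by edgeR (log2 fold change -0.33, adjusted p = 0.0167). On log2(TPM + 1) it was at 0.25 and not called, where the median of all genes was 0.29. Foxo1, a forkhead transcription factor, rose in CPT against CON (log2 fold change 0.81 ± 0.10 (SE)) and was the 1 gene of this list called in AT3 against CPT by edgeR (2 by DESeq2). It measured 32.9, 30.7 and 33.3 CPM in AT3, 21.7, 19.6 and 24.2 CPM in CPT and 12.4, 12.1 and 12.9 CPM in CON. The groups did not overlap, and AT3 against CPT stood at 0.57 ± 0.10 (SE) on the log2 scale, edgeR adjusted p = 0.00481 (limma adjusted p = 0.0931 on log2(TPM + 1)).

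**Figure D4:**
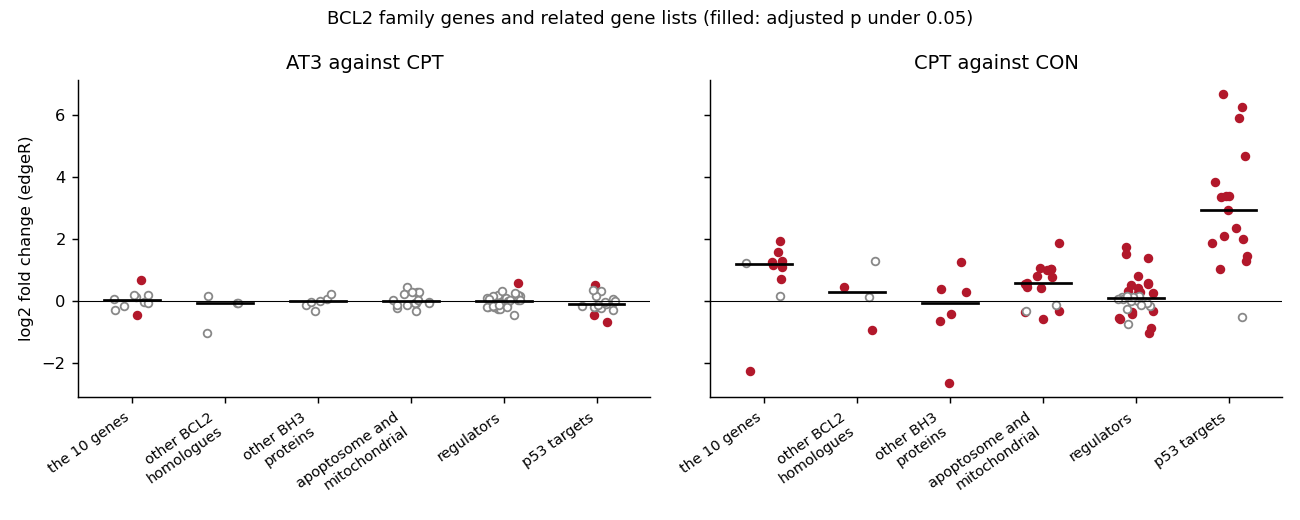
Log2 fold changes (edgeR, vertical axis) of the 10 genes and of 5 lists of related genes in AT3 against CPT and in CPT against CON. Each point is a gene, filled where edgeR adjusted p is under 0.05, and lines are medians. The 10 genes have medians of 0.02 and 1.19, and p53 targets of -0.12 and 2.92.

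Of 17 other p53 target genes, 16 rose in CPT against CON and Sesn1 was not called (log2 fold change -0.53), with a median log2 fold change of 2.92. Bax and Bbc3, at 1.24 and 1.29, lay below that median. Over all tested genes 30.0% were higher and 30.8% lower. In AT3 against CPT 2 of these p53 targets fell and 1 rose, on a median of -0.12, where 2.22% of all tested genes were lower and 2.46% higher. Phlda3 was at -0.47 ± 0.09 (SE; edgeR adjusted p = 0.00754), Gadd45a at -0.69 ± 0.18 (SE; edgeR adjusted p = 0.0397) and Trp53inp1 at 0.50 ± 0.11 (SE; edgeR adjusted p = 0.0159). On the TPM scale none of the 3 was called. Leaving out AT3_1 or AT3_2 ended all 3 calls, CPT_2 those of Gadd45a and Trp53inp1, and AT3_3 or CON_1 that of Gadd45a (edgeR adjusted p = 0.0576 to 0.205).

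For Bax, Bbc3, Bcl2l1 and Mcl1 the tested genes with the most similar profile over the 9 libraries were found by the root mean square difference of log2 CPM, each gene centred on its own mean. Zfp324 was nearest to Bax at 0.0982, then Tap1 (0.123) and Hsp90b1 (0.133), against a median of 0.632 over all tested genes. Rad1 was nearest to Bbc3 (0.110, against a median of 0.771), then Ik and Cryz. Gid8 was nearest to Bcl2l1 (0.0644, against a median of 0.661), then Dst and Lurap1l. Rmdn1 was nearest to Mcl1 (0.0482, against a median of 0.502), then Arhgap1 and Mrps22.

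Exons of 4 of the 10 genes overlap another gene in the GENCODE M21 annotation of GRCm38, and the labels do not say whether counting used strand. Bid shares 628 exonic bases with Bcl2l13 on the other strand, which had 3773 counts over the 9 libraries, against 439 for Bid. Bad shares 524 bases with Gpr137 (3632 counts, against 3152 for Bad), and Bak1 shares 437 and 177 bases with 2 genes named Ggnbp1 (1147 and 602 counts, against 2099 for Bak1), all on the opposite strand. Bax shares 192 bases with Gm45808 on its own strand, which had 20.4 counts, against 12495 for Bax. For Bid, Bad and Bak1 the division of reads is therefore uncertain.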

How the data were processed

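Per the labels' protocols, liver RNA came from a Qiagen spin column and went into a SMARTer mRNA library kit. The authors deposited estimated counts per gene and TPM values, length-scaled and summing alike across libraries. The submitters' processing notes name GRCm38, mm10 and GRCm39 with no role, and the sources used here do not name the aligner or counter. Of the deposited estimated counts 7.96% to 9.55% per library were not whole, so they were rounded. Rows with a gene identifier but no symbol held 0.126% to 0.220% of the counts and were kept. Genes were matched by identifier to GENCODE M21 (91.3% of identifiers found).

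Groups were tested in R 4.3.3 by edgeR 4.0.16, using TMM scaling and filterByExpr, fitting all 9 libraries in 1 quasi-likelihood model and adjusting p by Benjamini-Hochberg over 13686 genes. All 10 members passed the filter, Pmaip1 on 2 to 19 counts and only through AT3 and CPT libraries. Log2 CPM used a prior count of 2. Standard errors are the log2 fold change divided by the square root of the F statistic. Alternatives used DESeq2 1.42.0, limma 3.58.1, other scaling and filters, TPM, a replicate block and each library left out. Replicates of a group differed by more than sampling noise (chi-square per degree of freedom 7.48 to 107). The members and gene lists were chosen with earlier results of these data known, and which genes of the lists are printed was chosen after their values were seen. The naming rule took all members, list genes by p in each direction, and the 3 nearest profiles of 4 members. The protein motif stretches that had been planned were not used here. Some genes of the lists are counted but not reported here by name.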

Additional observations from a re-analysis of the deposited data

How the results depend on the processing

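The 8 members called in CPT against CON were called in the same direction under all 18 alternatives, and so were these 8 genes in AT3 against CON. In AT3 against CPT, 0 members were called higher and 0 lower on log2(TPM + 1) and on log2(TPM + 0.1), against 1 and 1 on counts. Leaving out single libraries gave 0 to 1 higher and 0 to 1 lower. Over the alternatives the adjusted p ran from 0.000859 to 0.344 for Bax (log2 fold change -0.54 to -0.37) and from 0.00508 to 0.548 for Bcl2l11 (0.39 to 0.74). TPM values use a gene length for each library and were not rescaled between libraries before the fit. On that scale the median of all genes moved by 0.29 (pseudocount 1) and 0.51 (pseudocount 0.1) in CPT against CON, and the cause was not tested.

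With the replicate number as a block, the members' counts were 7 higher and 1 lower in CPT against CON, 1 and 1 in AT3 against CPT, and 8 and 1 in AT3 against CON. Over all genes the block gave 242 higher and 209 lower in AT3 against CPT, against 337 and 304 without it. Same-numbered libraries deviated together weakly at most (correlations -0.0378 to 0.0762 over the 3 comparisons). In AT3 against CPT these correlations were 0.0518 to 0.0762, against -0.0577 to -0.0185 for libraries of unlike number. The numbers are not taken as pairs in the main fit. In AT3 against CPT limma-voom called 796 genes higher and 609 lower, the analysis without a filter 617 and 557, and log2(TPM + 1) 29 and 16.

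The values that changed sign were those of uncalled members or came from TPM, and the cause was not tested. In AT3 against CON, Bak1 was at 0.01 with DESeq2's size factors (0.0108), with DESeq2 (0.0121) and with the 6 libraries alone (0.0064), at 0.0046 with limma-voom, 0.0776 without a filter, 0.0189 without mitochondrial and the most abundant genes, and 0.53 and 0.66 on the TPM scales. In AT3 against CPT, Bad was at 0.0158 and 0.0172 on the TPM scales and at 0.0092 with limma-voom, and Mcl1 at 0.0305 and 0.0328 on the TPM scales. In CPT against CON the TPM scales gave Endog 0.0084 and 0.00899, Htra2 0.0995 and 0.114, Sesn1 0.0254 and 0.0542, Spns1 0.0847 and 0.0962, Trp53 0.25 and 0.28, and Xiap 0.35 and 0.37.

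Leaving out 1 library at a time in AT3 against CPT gave -0.13 to 0.11 for Bad, -0.28 to 0.0177 for Bak1, -0.0193 to 0.40 for Bbc3, -0.0385 to 0.19 for Bid, -0.50 to 0.0069 for Bok and -0.15 to 0.0295 for Mcl1. Pmaip1 ran from -0.23 to 0.32. Bak1 ran from -0.013 to 0.29 in CPT against CON and from -0.0587 to 0.12 in AT3 against CON. Pmaip1 had no DESeq2 adjusted p in AT3 against CPT. Pmaip1 had 2 to 19 counts in a library, so depth limits the precision of its values.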
